A study of Caenorhabditis elegans with 19 samples.

Results

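The 32 genes described here encode the aminoacyl-tRNA synthetases of Caenorhabditis elegans whose symbols consist of a single letter followed by ars-1 or ars-2. They are 32 of the 19985 protein-coding genes counted in dissected gonads, 20 with the suffix -1 and 12 with the suffix -2. The letter is the amino acid: each of the 20 amino acids has a -1 gene, and 12 also have a -2 gene. Cysteine, glycine, histidine, lysine, glutamine, threonine, valine and tryptophan have a -1 gene only. For 31 genes the symbol came from the Ensembl annotation, and mars-2 (WBGene00013678) was matched through its RefSeq symbol.

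An aminoacyl-tRNA synthetase joins 1 amino acid to its tRNAs and so supplies the ribosome with charged tRNA. Cytosolic and mitochondrial translation draw on separate pools of charged tRNA, and in animals most amino acids are handled by a separate nuclear-encoded enzyme in each compartment, while a few genes serve both. In human cells several of the cytosolic enzymes sit together in a multi-synthetase complex. A shortage of charging is sensed by the kinase GCN-2, which binds uncharged tRNA and phosphorylates the initiation factor eIF2alpha. The suffix -1 is usually the cytosolic enzyme and -2 the mitochondrial one. The alanyl pair is named the other way round: aars-2 is the cytosolic and aars-1 the mitochondrial alanyl-tRNA synthetase.

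The gonads came from young adult hermaphrodites of 3 strains, in each of which 1 protein carried an auxin-inducible degron, a tag that lets the plant hormone auxin trigger breakdown of the protein. In strain ESC332 the tagged protein was RPOA-2, an RNA polymerase I subunit, in ESC422 it was GRWD-1 and in ESC420 it was TSR-2, both chaperones of ribosome assembly. From late L4 the animals spent 18 h on agar holding auxin at 1 mM or, as the control, ethanol, its solvent. A library was made from 20 gonads. RPOA-2 depletion has 4 auxin and 4 ethanol libraries, GRWD-1 depletion 3 auxin and 3 ethanol libraries, and TSR-2 depletion 3 auxin and 2 ethanol libraries. The ethanol animals carried the same tag as the auxin animals of their strain. Untagged animals given auxin are not among the libraries analysed here, so an effect of auxin itself and an effect of losing the protein cannot be told apart. The tissue or promoter in which the auxin receptor was expressed is not given in the sources used here. Nothing in the labels says whether replicates came from separate cultures, so p-values measure the spread between these libraries, which may be technical.

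Protein-coding totals were 2422766 to 8012912 counts in RPOA-2 auxin libraries and 1582308 to 4336988 in RPOA-2 ethanol libraries, and 4229644 to 8526501 in GRWD-1 auxin libraries and 2031037 to 2993987 in GRWD-1 ethanol libraries. The TSR-2 libraries were counted in a second table, in which a read with several places is divided among them. There the protein-coding totals were 1903532, 3950204 and 43631 in auxin replicates 1, 2 and 3, and 3766421 and 2055048 in the ethanol libraries. TSR-2 auxin replicate 3 is so shallow that 3 counts equal 63.8 CPM (counts scaled to a common library total, after TMM factors on the protein-coding total), and 8 of the 32 synthetase genes had fewer than 3 counts in it. The defining germline transcripts were present in every group, with a summed 5274 to 7340 CPM over 10 marker genes in auxin libraries and 5213 to 6127 CPM in ethanol libraries. Intestinal markers, mostly the vitellogenins, were lower in auxin libraries by their medians. These were 2309 CPM in auxin and 13068 CPM in ethanol for RPOA-2, 846 and 1218 CPM for GRWD-1, and 727 and 1393 CPM for TSR-2. Ranges overlapped for RPOA-2 (653 to 21516 CPM in auxin, 1629 to 38365 in ethanol) and GRWD-1 (439 to 1778 and 770 to 4540). They did not overlap for TSR-2 (213 to 794 and 1066 to 1721 CPM). Body wall muscle markers had higher medians in auxin for RPOA-2 (548 and 395 CPM) and GRWD-1 (217 and 155 CPM). For RPOA-2 the ranges overlapped (331 to 724 CPM in auxin, 342 to 1952 in ethanol), and each of the 5 markers had a lower mean in auxin. For GRWD-1 the ranges nearly touched (183.54 to 270 CPM in auxin, 149 to 183.53 in ethanol). For TSR-2 the muscle median was lower in auxin (203 and 342 CPM), with overlapping ranges (63.8 to 268 and 264 to 420 CPM). All 6 intestinal markers were detected except in TSR-2 auxin libraries, where elt-2 and ges-1 were at 0. The part of these marker differences in the results below was not tested. The transcripts of the 3 tagged genes were not lower with auxin, and they do not check the depletion, which acts on the protein: rpoa-2 averaged 258 ± 47.0 CPM in auxin and 211 ± 20.5 in ethanol libraries of its strain, grwd-1 401 ± 48.8 and 326 ± 55.8, and tsr-2 175 ± 51.6 and 83.7 ± 2.84 (SD).

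All 32 synthetase genes passed the low-count filter in all 3 strains, so the counts below cover every member. Their proteins had 417 to 1186 residues for the -1 genes (median 724) and 418 to 970 for the -2 genes (median 496), by the longest coding sequence in the annotation. In 10 of the 12 pairs the -1 protein was the longer. By catalytic fold, 10 of the -1 enzymes belong to class I and 10 to class II, and the -2 enzymes divide 6 and 6. None of the genes is X-linked, and 10 lie on chromosome I.

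Transcript levels were compared between genes per length, as TPM (transcript levels corrected for gene length and library total) in the 7 ethanol libraries of the RPOA-2 and GRWD-1 strains. The highest mean was that of pars-1, the prolyl-tRNA synthetase, at 334 ± 29.1 TPM (SD, n = 7). Its percentile among all protein-coding genes, those at 0 included, was 98.4. It was followed by kars-1 (lysyl) at 318 ± 32.6 TPM, ears-1 (glutamyl) at 310 ± 63.5 TPM and sars-1 (seryl) at 274 ± 29.3 TPM. The lowest -1 genes were yars-1 (tyrosyl) at 45.0 ± 3.795 TPM and vars-1 at 48.2 ± 5.28 TPM. vars-1 is a valyl gene, and glp-4, a valyl-tRNA synthetase gene outside the naming pattern and known for its germline-deficient temperature-sensitive mutant, stood at 189 ± 30.6 TPM. Outside the pattern too is fars-3, the beta subunit of the cytosolic phenylalanyl enzyme, which stood at 120 ± 13.4 TPM beside 102 ± 18.1 TPM for the alpha subunit fars-1. Every gene in the level order overlapped its next neighbour in range over the 7 libraries, in 31 of 31 neighbouring pairs, so the order of neighbours is not resolved.

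The -2 genes lay lower as a group, with a median of 63.3 TPM (15.7 to 192), against 145 TPM (45.0 to 334) for the -1 genes; the median over all protein-coding genes above 0 was 1.95 TPM. The highest -2 gene was aars-2, the cytosolic alanyl enzyme, at 192 ± 18.0 TPM, followed by fars-2 (phenylalanyl) at 93.7 ± 10.6 TPM. The lowest were dars-2 (aspartyl) at 15.7 ± 4.84 TPM and pars-2 (prolyl) at 20.6 ± 4.36 TPM. Within libraries, the -1 gene was above its -2 partner in all 7 libraries in 9 of 12 pairs. The widest such gap was that of the prolyl pair, with pars-1 at 16.9 ± 4.29 times pars-2 (range 12.2 to 24.8), and the glutamyl pair was at 13.3 ± 1.70 times. The -2 gene was above in all 7 libraries for the alanyl pair, with aars-1 at 0.273 ± 0.0488 times aars-2, and for the tyrosyl pair, with yars-1 at 0.531 ± 0.0623 times yars-2. The phenylalanyl pair crossed, from 0.794 to 1.42 times. The coefficient of variation over the 7 libraries had a median of 11.1% in -1 genes and 17.2% in -2 genes.

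**Figure D1:**
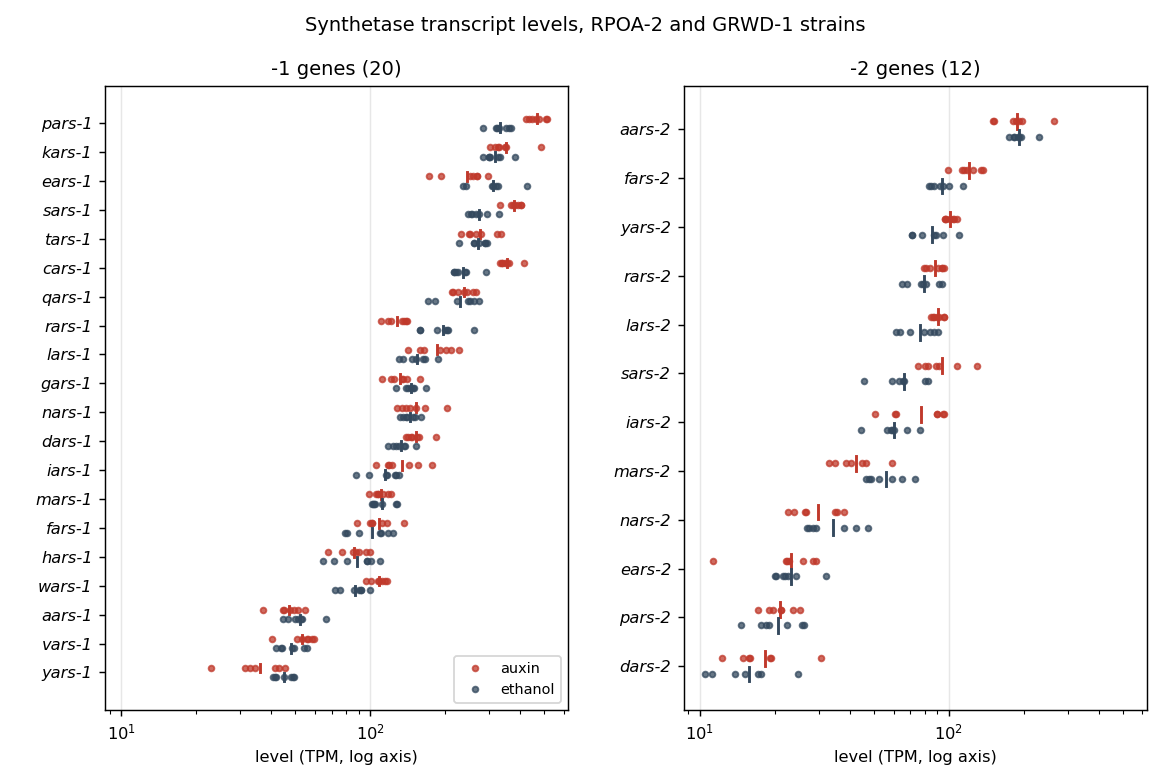
Level of each synthetase gene in TPM (log axis) in the auxin libraries (red, upper row of each gene) and the ethanol libraries (dark, lower row) of the RPOA-2 and GRWD-1 strains, 7 libraries each, with a vertical tick at the mean. The -1 genes (left) reach from 45.0 to 334 TPM in ethanol libraries and the -2 genes (right) from 15.7 to 192 TPM, and in rars-1 every red point lies to the left of every dark one.

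Depletion was followed by small changes in the synthetase transcripts. The auxin and ethanol libraries of each strain were compared with the quasi-likelihood test of edgeR over all genes tested, and a gene was called at a Benjamini-Hochberg adjusted p under 0.05. For RPOA-2, 1 of 32 was called, rars-1, lower with auxin; the same rule called 3.78% of all 7881 genes, 2.56% higher and 1.22% lower. For GRWD-1, 2 of 32 were called, cars-1 higher and rars-1 lower, against 2.69% of 6948 genes, 1.21% higher and 1.48% lower. For TSR-2, 0 of 32 were called by edgeR, against 2.55% of 6396 genes (0.532% higher and 2.02% lower); DESeq2 also called 0, with 4 of the 32 given no adjusted p. At an unadjusted p under 0.05 there were 10 of 32 for RPOA-2 (19.2% of all genes), 11 for GRWD-1 (17.8%) and 5 for TSR-2 (16.5%). In these fits none of the 12 -2 genes was called by edgeR (4, 4 and 1 at an unadjusted p under 0.05 for RPOA-2, GRWD-1 and TSR-2). DESeq2 called none of them either, and the 4 genes to which it gave no adjusted p for TSR-2 are -2 genes. Counts of 0 to 2 among 32 genes lie near the shares over all genes.

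The RPOA-2 and the GRWD-1 libraries were taken as pairs by replicate number, less clearly so for RPOA-2. A fit that blocks on that number gave a larger GRWD-1 count. The SE, the fits with 1 library left out and the comparisons between strains were all made without this block. Whether calls of the blocked fit hold with 1 library left out was not tested. The block called 9 of 32 for GRWD-1, against 14% of all genes (7.18% higher and 6.85% lower), with cars-1, pars-1, sars-1, sars-2 and fars-1 higher and ears-1, rars-1, yars-1 and mars-2 lower. Of these, sars-2 and mars-2 are -2 genes. For RPOA-2 the block called 2 of 32, rars-1 lower and sars-1 higher, against 3.4% of all genes (2.23% higher and 1.17% lower).

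The sizes were modest. The largest absolute log2 change among the 32 was 0.54 for RPOA-2, 0.82 for GRWD-1 and 0.80 for TSR-2, so 0 of 32 reached an absolute log2 change of 1, against 5.9%, 7.08% and 12% of all genes tested. The median absolute log2 change of the 32 was 0.18 for RPOA-2, 0.28 for GRWD-1 and 0.29 for TSR-2, against 0.26, 0.29 and 0.33 over all genes tested. Directions were mixed. Among -1 genes 10 of 20 log2 changes were positive for RPOA-2 (median -0.01), 13 of 20 for GRWD-1 (median 0.14) and 14 of 20 for TSR-2 (median 0.14), while 48.4%, 49.9% and 47.2% of all genes tested were positive. Among -2 genes 7 of 12 were positive for RPOA-2 (median 0.10), 8 of 12 for GRWD-1 (median 0.14) and 7 of 12 for TSR-2 (median 0.08). The medians over all genes tested were -0.015, -0.0017 and -0.034. With only the alanyl pair exchanged, so that for this pair the suffix follows the compartment, the -2 median in TSR-2 turned negative. It was -0.11 with 6 of 12 positive, and the -1 median in RPOA-2 turned positive, at 0.03. The compartments of the valyl enzymes of vars-1 and glp-4 were not examined, and vars-1 stayed in the -1 set.

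**Figure D2:**
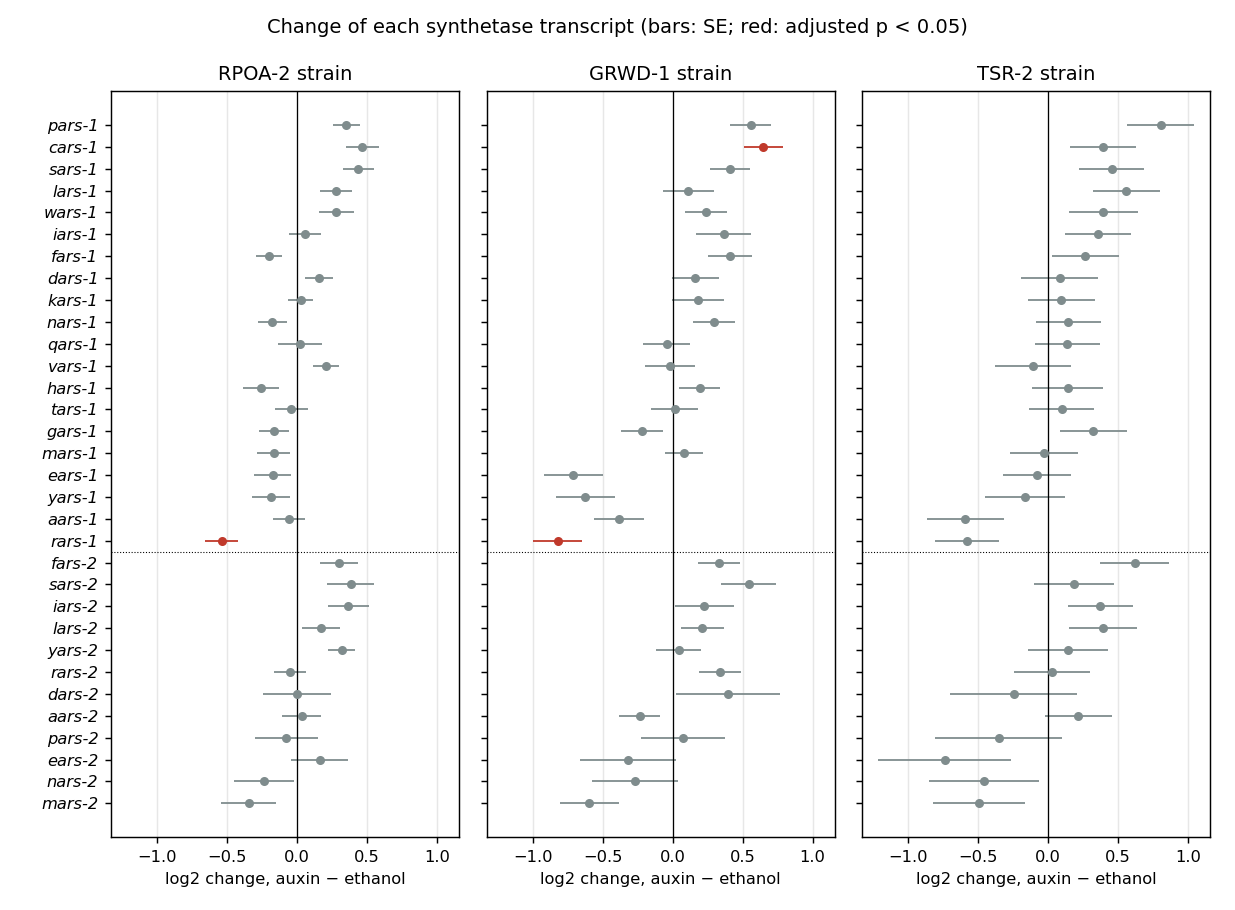
Log2 change (auxin minus ethanol) of each synthetase gene in the 3 strains, with bars for the SE of the fitted change. The 20 -1 genes are above the dotted line and the 12 -2 genes below it, each ordered by the mean of the 3 changes. Red points have an adjusted p under 0.05: rars-1 at -0.54 for RPOA-2, and cars-1 at 0.65 and rars-1 at -0.82 for GRWD-1.

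rars-1 (WBGene00004679, chromosome III 4914088 to 4917177, minus strand) encodes the arginyl-tRNA synthetase, in human cells a member of the multi-synthetase complex. It was the only synthetase gene whose auxin libraries were all below the ethanol libraries in each of the 3 strains, a pattern found in 1.42% of the 6145 genes tested in all 3. In the RPOA-2 strain it had 232, 233, 218 and 236 CPM in auxin libraries, against 372, 253, 349 and 362 CPM in ethanol libraries. The auxin libraries were close to each other and the second ethanol library was the nearest to them. Means were 230 ± 8.05 CPM in auxin and 334 ± 54.8 CPM in ethanol libraries (SD, n = 4 each), a log2 change of -0.54 ± 0.12 (SE; adjusted p 0.0348, and 0.0439 with the block).

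The GRWD-1 strain gave 220, 212 and 196 CPM in auxin libraries, against 334, 474 and 303 CPM in ethanol libraries. The drop was deepest against the second ethanol library, and without it the log2 change was -0.57. Means were 210 ± 12.2 CPM in auxin and 370 ± 91.0 CPM in ethanol libraries (n = 3 each), with a log2 change of -0.82 ± 0.18 (adjusted p 0.0350, and 0.00112 with the block). TSR-2 auxin libraries had 216, 215 and 191 CPM, against 313 and 323 CPM in ethanol libraries. The log2 change of -0.58 ± 0.23 was close in size to those of the other strains but missed the threshold (adjusted p 0.178), and it was -0.53 without the shallow replicate 3. Without the block, these calls of rars-1 rest on all libraries together. After leaving out 1 library at a time, the adjusted p for RPOA-2 ranged from 0.00386 to 0.177. It was under 0.05 in 1 of 8 fits (without ethanol replicate 2). For GRWD-1 it ranged from 0.0714 to 0.168, under 0.05 in 0 of 6 fits. The log2 change stayed negative in every one of these fits, from -0.68 to -0.50 for RPOA-2 and from -0.93 to -0.57 for GRWD-1. The span of rars-1 overlaps cee-1 on the other strand, and whether the authors counted by strand is not given in the sources used here. cee-1 itself was not lower, with log2 changes of 0.18, 0.64 and 0.10 for RPOA-2, GRWD-1 and TSR-2 (adjusted p 0.530, 0.0745 and 0.919). The block called cee-1 higher for GRWD-1.

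**Figure D3:**
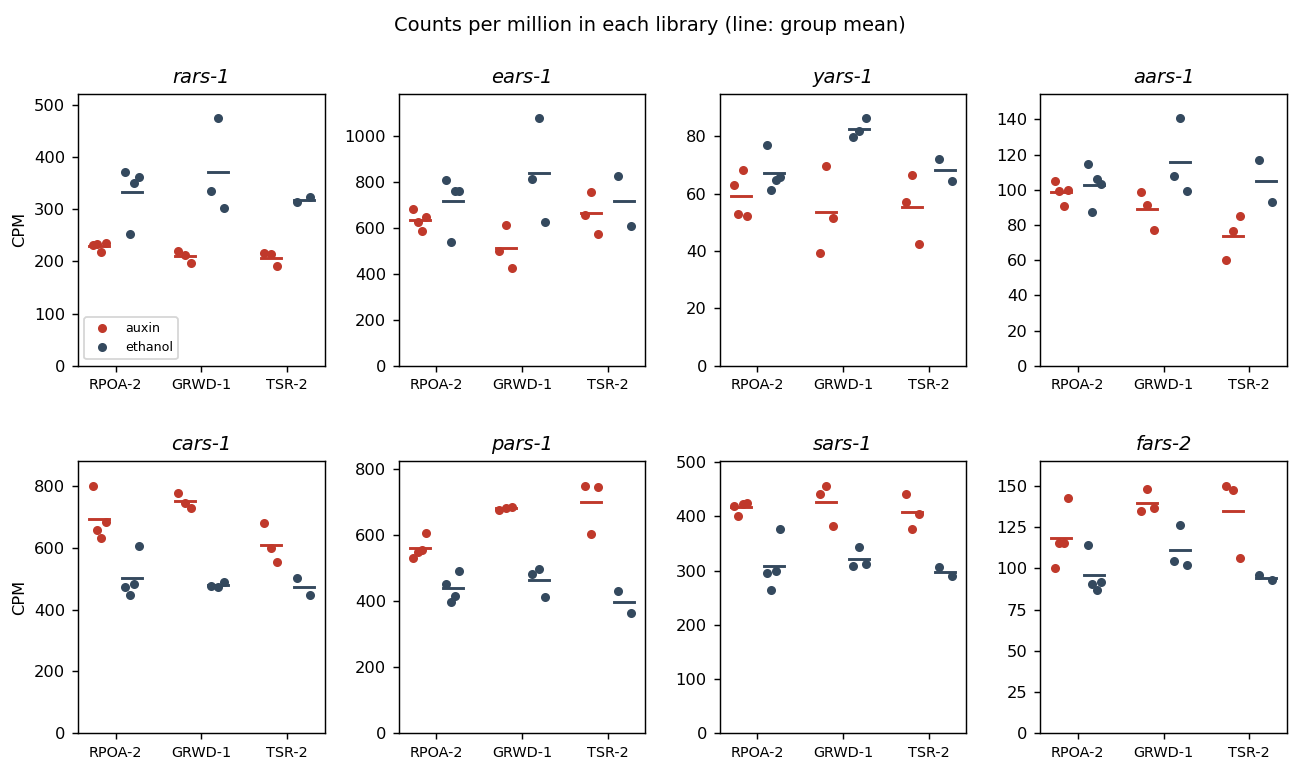
CPM of 8 synthetase genes in every library, auxin in red to the left of ethanol in dark within each strain, with a line at the group mean. In rars-1 all red points lie below the dark ones in each strain, and in cars-1, pars-1 and sars-1 all lie above; ears-1, yars-1, aars-1 and fars-2 overlap in at least 1 strain. Axes start at 0, and TSR-2 values come from the second count table.

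The opposite pattern, every auxin library above every ethanol library in each strain, was found in 3 of the 32 genes, cars-1, pars-1 and sars-1, against 2.03% of the 6145 genes tested in all 3 strains. All are -1 genes. cars-1 (WBGene00000800, chromosome I 2623099 to 2628577, minus strand) encodes the cysteinyl-tRNA synthetase. Its GRWD-1 auxin libraries had 777, 745 and 728 CPM, against 475, 472 and 488 CPM in ethanol libraries. Both groups were tight and far apart, at 750 ± 24.7 CPM in auxin and 478 ± 8.41 CPM in ethanol libraries, and the log2 change was 0.65 ± 0.14 (adjusted p 0.0342, and 0.000817 with the block). Leaving out 1 library at a time gave an adjusted p of 0.0453 to 0.136, under 0.05 in 1 of 6 fits (without auxin replicate 2), with log2 changes of 0.63 to 0.71.

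For RPOA-2, cars-1 had 800, 659, 633 and 682 CPM in auxin libraries, against 473, 448, 483 and 604.998 CPM in ethanol libraries, a log2 change of 0.47 ± 0.12 that did not pass (adjusted p 0.0577, and 0.0642 with the block). The fourth ethanol library was the nearest to the auxin ones. For TSR-2 the auxin libraries had 680, 598 and 553 CPM and the ethanol libraries 501 and 447 CPM, with a log2 change of 0.39 ± 0.24 (adjusted p 0.427). The span of cars-1 overlaps Y23H5A.2 on the other strand, whose log2 changes were 0.53, 0.45 and 0.14 for RPOA-2, GRWD-1 and TSR-2 (adjusted p 0.138, 0.274 and 0.704). Reads of these genes cannot be told apart if strand was not used in counting, although Y23H5A.2 had 2250 counts in 12 libraries beside 34169 for cars-1.

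pars-1 (WBGene00004189, chromosome III 7239027 to 7241277, plus strand) encodes the prolyl enzyme, a separate protein in the worm and part of a fused glutamyl-prolyl enzyme in humans. Its auxin libraries had 749, 604.1 and 745 CPM for TSR-2, against 429 and 363 CPM in ethanol libraries, the largest log2 change of any synthetase gene in that strain at 0.80 ± 0.24 (adjusted p 0.0699). Without ethanol replicate 1 the adjusted p was 0.0276, and without the shallow auxin replicate 3 it was 0.147 with the log2 change still 0.80. GRWD-1 auxin libraries were nearly equal, at 677, 683 and 686 CPM, against 481, 497 and 411 CPM in ethanol libraries. That gave a log2 change of 0.56 ± 0.15 (adjusted p 0.0652), and the block called it (adjusted p 0.00320). RPOA-2 auxin libraries had 530, 549, 554 and 607.3 CPM, against 451, 398, 415 and 491 CPM in ethanol libraries, with a log2 change of 0.35 ± 0.10 (adjusted p 0.0705).

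sars-1 (WBGene00005663, chromosome IV 10003726 to 10005578, plus strand) encodes the cytosolic seryl enzyme. Its log2 changes were similar in size, at 0.44 ± 0.11 for RPOA-2, 0.41 ± 0.14 for GRWD-1 and 0.45 ± 0.23 for TSR-2 (adjusted p 0.0529, 0.159 and 0.332), and the block called the first 2 (adjusted p 0.0468 and 0.0157). RPOA-2 libraries had 418, 402, 424 and 424 CPM with auxin, against 296, 263, 299 and 376 CPM with ethanol. GRWD-1 libraries had 442, 456.5 and 382 CPM with auxin, against 308, 343 and 312 CPM with ethanol. TSR-2 libraries had 442, 377 and 404 CPM with auxin, against 306 and 290 CPM with ethanol. The mitochondrial seryl gene sars-2 had a larger spread. Its log2 change was 0.54 ± 0.20 for GRWD-1 (adjusted p 0.170, and 0.0374 with the block), from 111, 126 and 78.2 CPM in auxin and 65.2, 82.0 and 69.3 CPM in ethanol libraries, which overlap. It was 0.38 ± 0.17 for RPOA-2 and 0.18 ± 0.29 for TSR-2 (adjusted p 0.240 and 0.812).

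The -1 genes whose human counterparts belong to the multi-synthetase complex, rars-1 and pars-1 among them, went different ways. Of these 9 genes, 5 had positive log2 changes in all 3 strains (dars-1, iars-1, kars-1, lars-1 and pars-1) and 2 had negative ones (ears-1 and rars-1), with medians over the 9 of 0.03, 0.11 and 0.09 for RPOA-2, GRWD-1 and TSR-2. ears-1 (WBGene00001337, chromosome I 10336395 to 10341178, plus strand), the glutamyl enzyme, was lower in the GRWD-1 strain by the block (log2 change -0.69, adjusted p 0.000662) and did not pass without it (-0.71 ± 0.21, adjusted p 0.0949). Its libraries there had 499, 615 and 427 CPM with auxin, against 815, 1079 and 628 CPM with ethanol, so the same replicate was the highest in both groups. In the RPOA-2 strain it averaged 635 ± 39.7 CPM with auxin and 717 ± 121 CPM with ethanol (log2 change -0.17, adjusted p 0.523), and for TSR-2 664 ± 92.0 and 718 ± 154 CPM (-0.08, adjusted p 0.916), both with overlapping libraries. kars-1, the lysyl enzyme, averaged 441 ± 18.0 CPM with auxin and 434 ± 32.4 CPM with ethanol for RPOA-2, 560 ± 118 and 495 ± 73.7 CPM for GRWD-1, and 497 ± 27.3 and 470 ± 110 CPM for TSR-2, overlapping in each (log2 changes 0.03, 0.18 and 0.09).

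The tyrosyl and alanyl genes named with -1 had negative log2 changes throughout. yars-1 (WBGene00013677, chromosome I 14476759 to 14486767, minus strand) had 39.4, 69.6 and 51.4 CPM in GRWD-1 auxin libraries, against 79.6, 82.0 and 86.3 CPM in ethanol libraries. The groups did not overlap, and the log2 change was -0.62 ± 0.21 (adjusted p 0.140, and 0.0260 with the block). Its changes were -0.19 for RPOA-2 and -0.17 for TSR-2 (adjusted p 0.517 and 0.833), and its span overlaps ekl-4 on the other strand. The mitochondrial alanyl gene aars-1 (WBGene00000196, chromosome II 11460205 to 11464497, minus strand) had 60.3, 76.4 and 85.1 CPM in TSR-2 auxin libraries, against 117 and 92.9 CPM in ethanol libraries (log2 change -0.59 ± 0.28, adjusted p 0.275). For GRWD-1 its auxin libraries, at 98.8, 91.3 and 76.9 CPM, also lay below those with ethanol, at 108, 141 and 99.3 CPM (-0.38 ± 0.18, adjusted p 0.289). For RPOA-2 they overlapped (-0.05, adjusted p 0.851).

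Its cytosolic partner aars-2 overlapped in all 3 strains, with log2 changes of 0.03, -0.24 and 0.21 for RPOA-2, GRWD-1 and TSR-2 (adjusted p 0.931, 0.451 and 0.728). vars-1 had 107, 121, 111 and 107 CPM in RPOA-2 auxin libraries, against 94.9, 94.2, 102 and 94.4 CPM in ethanol libraries, a separation of the groups by a narrow margin (log2 change 0.21 ± 0.10, adjusted p 0.273). It overlapped in the other strains, with log2 changes of -0.02 for GRWD-1 and -0.11 for TSR-2.

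fars-1, the alpha subunit of the cytosolic phenylalanyl enzyme, had separate libraries in every strain but not in one direction. RPOA-2 libraries had 147, 132, 150 and 121 CPM with auxin, against 162, 156, 159 and 154 CPM with ethanol (log2 change -0.20 ± 0.10, adjusted p 0.286). GRWD-1 libraries had 151, 190 and 143 CPM with auxin, against 113, 129 and 121 CPM with ethanol (0.41 ± 0.16, adjusted p 0.200, and 0.0407 with the block). TSR-2 libraries had 134, 137 and 128 CPM with auxin, against 111 and 114 CPM with ethanol (0.27 ± 0.24, adjusted p 0.652). The beta subunit fars-3 had log2 changes of -0.08, 0.21 and 0.07 for RPOA-2, GRWD-1 and TSR-2, and glp-4 of -0.06, -0.24 and -0.02, with overlapping libraries in every strain and 0 calls by edgeR, with or without the block (0 at an unadjusted p under 0.05).

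Among the mitochondrial enzymes, fars-2 (WBGene00013361, chromosome V 19897977 to 19907434, minus strand) had positive log2 changes of 0.30 ± 0.14, 0.33 ± 0.15 and 0.62 ± 0.25 for RPOA-2, GRWD-1 and TSR-2 (adjusted p 0.257, 0.277 and 0.191). Its TSR-2 libraries had 150, 148 and 106 CPM with auxin, against 95.8 and 92.9 CPM with ethanol. In the GRWD-1 strain it had 135, 148 and 136 CPM with auxin, against 105, 126 and 102 CPM with ethanol. The RPOA-2 libraries overlapped, with 100.1, 115.2, 115.4 and 143 CPM with auxin and 114, 90.6, 86.8 and 91.7 CPM with ethanol. iars-2, the isoleucyl gene, had 223, 222, 206 and 148 CPM in RPOA-2 auxin libraries, against 158, 131, 184 and 148 CPM in ethanol libraries (log2 change 0.37 ± 0.15, adjusted p 0.195). It was at 0.23 for GRWD-1 and 0.37 for TSR-2, and in the TSR-2 strain its libraries did not overlap.

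mars-2 (WBGene00013678, chromosome I 14486877 to 14496560, minus strand), the methionyl gene, had negative log2 changes of -0.34 ± 0.20, -0.59 ± 0.21 and -0.49 ± 0.33 for RPOA-2, GRWD-1 and TSR-2 (adjusted p 0.388, 0.160 and 0.490; 0.0259 with the block for GRWD-1). GRWD-1 libraries had 56.0, 45.3 and 39.2 CPM with auxin, against 88.3, 63.6 and 60.8 CPM with ethanol, without overlap. In the other 2 strains the libraries overlapped. It is the neighbour of yars-1 on the chromosome, on the same strand, and both were lower in the GRWD-1 strain with the block.

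The scarcest transcripts gave the least certain values. ears-2, the glutamyl gene, had 13.2, 16.5 and 0 CPM in TSR-2 auxin libraries, where the 0 is in the shallow replicate 3, against 26.5 and 21.4 CPM in ethanol libraries (log2 change -0.74 ± 0.47, adjusted p 0.463). For GRWD-1 it had 26.3, 30.8 and 12.4 CPM with auxin and 25.1, 36.0 and 25.9 CPM with ethanol, and for RPOA-2 the log2 change was 0.16. dars-2 averaged 21.7 ± 2.82 CPM in auxin and 21.5 ± 6.69 CPM in ethanol libraries of the RPOA-2 strain, 25.6 ± 12.5 and 19.5 ± 4.82 CPM for GRWD-1, and 19.1 ± 1.87 and 21.6 ± 1.09 CPM for TSR-2. pars-2 averaged 21.7 ± 3.64 CPM in auxin and 22.9 ± 4.78 CPM in ethanol libraries for RPOA-2, 22.8 ± 1.40 and 21.8 ± 6.22 CPM for GRWD-1, and 14.9 ± 13.5 and 27.4 ± 12.4 CPM for TSR-2. The SE of dars-2, ears-2 and pars-2 were 0.20 to 0.47 on the log2 scale. Whether differences of the size seen in the abundant genes could be detected for them was not tested.

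Counting the libraries rather than the tests, 7 of 32 genes had auxin libraries fully apart from the ethanol ones for RPOA-2, against 12.9% of all genes: 5 were higher with auxin (8.4% of all genes) and 2 lower (4.53%). For GRWD-1 there were 13 of 32, against 24.6%, with 8 higher (13.3%) and 5 lower (11.3%). For TSR-2 there were also 13 of 32, against 32.6%, with 10 higher (12.7%) and 3 lower (19.9%). The remaining genes with separate libraries not yet described were yars-2 (higher for RPOA-2), nars-1, wars-1 and rars-2 (higher for GRWD-1), and hars-1, lars-1, qars-1 and wars-1 (higher for TSR-2); none of these was called.

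The strains were also compared directly. The log2 change had the same sign in all 3 strains in 19 of the 32 genes: 13 were positive (40.6%, against 26.4% of the 6145 genes tested in each strain) and 6 negative (18.8%, against 24.3%). The negative ones were aars-1, ears-1, rars-1, yars-1, mars-2 and nars-2. The positive ones were cars-1, dars-1, iars-1, kars-1, lars-1, pars-1, sars-1 and wars-1 among the -1 genes and fars-2, iars-2, lars-2, sars-2 and yars-2 among the -2 genes. With 1 library left out at a time, 12 of the 19 kept their sign in every fit. The sign turned in at least 1 fit of 1 strain or more for dars-1, iars-1, kars-1 and yars-2 among the positive genes and for ears-1, mars-2 and nars-2 among the negative ones. Each strain has its own ethanol libraries. No difference of the auxin effect between strains was called for any of the 32 genes by edgeR or DESeq2, for RPOA-2 minus GRWD-1 (0.0105% of 9495 genes called), GRWD-1 minus TSR-2 or RPOA-2 minus TSR-2 (0% of 11851 genes called in each). DESeq2 gave no adjusted p for 4, 10 and 10 of the 32 in these 3 comparisons. At an unadjusted p under 0.05 there were 4, 0 and 0, against 4.61%, 5.07% and 4.94% of all genes. The 4 were fars-1, nars-1, hars-1 and rars-2, and fars-1 had the widest difference at -0.63 ± 0.20. In this order their log2 changes were -0.20, -0.18, -0.26 and -0.05 in RPOA-2 and 0.41, 0.30, 0.19 and 0.34 in GRWD-1. For rars-1 the difference between RPOA-2 and GRWD-1 was 0.26 ± 0.24, so its deeper fall in GRWD-1 is within the error.

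As a share of all protein-coding counts, the 32 genes together took 0.734 ± 0.0218% in auxin and 0.689 ± 0.0513% in ethanol libraries of RPOA-2, 0.772 ± 0.0496% and 0.712 ± 0.0373% for GRWD-1, and 0.746 ± 0.0306% and 0.636 ± 0.0232% for TSR-2. The -2 genes took 0.132 ± 0.00320% in auxin and 0.119 ± 0.00665% in ethanol libraries of RPOA-2, where the groups did not overlap, and overlapped in the other strains. The -1 genes took 0.622 ± 0.0437% in auxin and 0.522 ± 0.0316% in ethanol libraries of TSR-2 without overlap, as did all 32 together, and overlapped in the RPOA-2 and GRWD-1 strains. These separations were not seen in the mean over genes of log2 CPM plus 1, where the libraries overlapped. For the -2 genes of RPOA-2 that mean was 6.13 to 6.25 in auxin and 5.99 to 6.22 in ethanol libraries. For the -1 genes of TSR-2 it was 7.87 to 7.97 in auxin and 7.70 to 7.89 in ethanol libraries. For all 32 genes in TSR-2 it was 6.90 to 7.28 and 7.15 to 7.18, with the lowest in the shallow replicate 3. Gonads were sequenced in bulk, so fewer cells of a type and less RNA per cell cannot be told apart in any of these values.

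**Figure D4:**
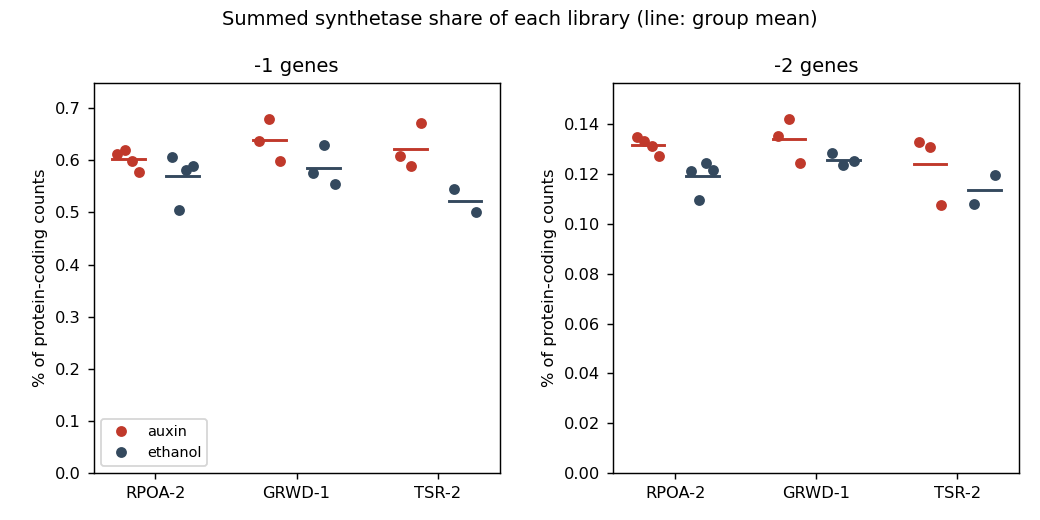
Percent of the protein-coding counts of each library that fall on the -1 genes (left) and the -2 genes (right), with auxin in red to the left of ethanol in dark and a line at the group mean. The -1 genes take 0.4997 to 0.680% and the -2 genes 0.108 to 0.142%, and auxin lies apart from ethanol in the -1 genes of TSR-2 and the -2 genes of RPOA-2.

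Genes that act before and after charging were read from 3 more lists. Of 15 tRNA maturation and modification genes tested (16 were listed), 2 were called higher for RPOA-2, 1 for GRWD-1 and 0 for TSR-2, and none lower, where 2.56%, 1.21% and 0.532% of all genes were called higher. At an unadjusted p under 0.05 there were 7, 8 and 7, against 19.2%, 17.8% and 16.5% of all genes. Their median log2 changes were 0.22, 0.46 and 0.51, and 11, 13 and 14 of 15 were positive, against 48.4%, 49.9% and 47.2% of all genes. The block called 6 of 15 higher for GRWD-1, against 7.18% of all genes: elpc-2, elpc-3, hoe-1, tgt-1, tgt-2 and tut-1. For RPOA-2 the block called 2 of 15 higher, alkb-8 and hoe-1, against 2.23% of all genes. hoe-1, the endonuclease that trims the 3′ end of tRNA precursors, had 277, 267, 263 and 269 CPM in RPOA-2 auxin libraries, against 176, 143, 157 and 154 CPM in ethanol libraries. The gap was wide beside the spread (log2 change 0.77 ± 0.09, adjusted p 0.00393), and 7 of 8 fits with 1 library left out still called it (adjusted p 0.00548 to 0.0648). It was at 0.71 for GRWD-1 (adjusted p 0.0612, and 0.00191 with the block) and 0.51 for TSR-2 (adjusted p 0.272), with separate libraries in each.

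alkb-8, which modifies the wobble uridine of tRNA, averaged 151 ± 9.09 CPM in auxin and 101 ± 11.6 CPM in ethanol libraries of RPOA-2 (log2 change 0.57, adjusted p 0.0212), and the call held in 1 of 8 fits with 1 library left out (adjusted p 0.0429 to 0.111). elpc-3, the catalytic subunit of the Elongator complex that modifies the same position, averaged 69.4 ± 15.5 CPM in auxin and 36.5 ± 1.69 CPM in ethanol libraries of GRWD-1 (log2 change 0.93, adjusted p 0.0389), and the call held in 1 of 6 such fits (adjusted p 0.0451 to 0.149).

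Of 8 elongation factors that receive charged tRNA, edgeR called 1, eef-1A.2, higher for GRWD-1, where 1.21% of all genes were called higher, and 0 for RPOA-2 and TSR-2, where 3.78% and 2.55% were called. At an unadjusted p under 0.05 there were 3 for RPOA-2, 6 for GRWD-1 and 1 for TSR-2, against 19.2%, 17.8% and 16.5% of all genes. It had 185 ± 38.4 CPM in auxin and 66.4 ± 15.5 CPM in ethanol libraries of GRWD-1 (log2 change 1.48, adjusted p 0.00582). Its far more abundant and nearly identical copy eef-1A.1 had 9518 ± 247 CPM in auxin and 14114 ± 1626 CPM in ethanol libraries there (log2 change -0.57, adjusted p 0.0738, and 0.00512 with the block), and how shared reads were assigned makes both values uncertain. The block called 3 of the 8 higher and 3 lower for GRWD-1, against 7.18% and 6.85% of all genes.

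Of the genes of uncharged tRNA sensing and eIF2, edgeR tested 7 for RPOA-2 and called 1 higher and 1 lower, against 2.56% and 1.22% of all genes. It tested 6 for GRWD-1 and 6 for TSR-2 and called 0 for GRWD-1 (2.69% of all genes) and 1 lower for TSR-2 (2.02%). At an unadjusted p under 0.05 there were 2 for RPOA-2, 0 for GRWD-1 and 1 for TSR-2, against 19.2%, 17.8% and 16.5% of all genes. gcn-2, the kinase that senses uncharged tRNA, was higher for RPOA-2. It had 495, 434, 404 and 416 CPM in auxin libraries, against 338, 288, 292 and 342 CPM in ethanol libraries (log2 change 0.47 ± 0.10, adjusted p 0.0317), but 0 of 8 fits with 1 library left out called it (adjusted p 0.0688 to 0.172). The block called gcn-2 higher for RPOA-2 as well. Its log2 change was -0.09 for GRWD-1 and 0.20 for TSR-2, with overlapping libraries in both. pek-1, the eIF2alpha kinase of the endoplasmic reticulum, was lower for RPOA-2, at 30.3 ± 0.741 CPM in auxin and 52.3 ± 11.3 CPM in ethanol libraries (log2 change -0.80, adjusted p 0.0341, and 0.0651 with the block), and 1 of 8 fits with 1 library left out called it (adjusted p 0.0296 to 0.128). For TSR-2 it was also lower, at 17.7 ± 3.78 CPM in auxin and 45.1 ± 3.59 CPM in ethanol libraries (log2 change -1.47, adjusted p 0.0345), with 0 of 5 such fits calling it (adjusted p 0.0639 to 0.260).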

How the data were processed

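Counts were deposited by the authors as whole-number reads per protein-coding gene (14 libraries) and as estimated counts that need not be whole, in which a read with several places is divided among them (17 libraries). Trim Galore 0.6.10, HISAT2 2.2.1, Picard, featureCounts 2.0.6 and WBcel235 are named per the submitters' processing notes. The strand setting is not given in the sources used here. All 19985 protein-coding genes are in both tables, and Ensembl release 115 gave symbols, coordinates (counted from 1) and exon lengths for TPM. The TSR-2 libraries, held in the second table only, were tested on its counts rounded to whole numbers; interactions with TSR-2 used replicates 1 to 3 of RPOA-2.

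Genes were tested with edgeR 4.0.16 (R 4.3.3): filterByExpr, TMM, the quasi-likelihood F test within a strain, and p-values adjusted by Benjamini-Hochberg across every gene in the fit. SE was obtained by dividing the size of the log2 change by the root of F. The code was tested on simulated data. The members and lists were chosen with earlier results of these data known. Values per library are given for called genes, the largest changes per strain (3 of -1, 2 of -2) and the highest and lowest levels; of the pathway lists, called genes are named. Same-numbered auxin and ethanol libraries deviated together for RPOA-2 (correlations over genes 0.175 to 0.314) and GRWD-1 (0.233 to 0.459). They were taken as pairs. Differently numbered libraries had -0.441 to 0.300 for RPOA-2 and -0.450 to 0.144 for GRWD-1, so the pairing is less clear for RPOA-2. TSR-2 libraries were not taken as pairs (-0.180 and -0.0720). With 2 ethanol libraries, whose deviations mirror each other, these values cannot decide whether the TSR-2 numbers pair. Alternatives were DESeq2 1.42.0, other normalizations, filters, blocks, covariates and tables, and leaving out each library in turn.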

Additional observations from a re-analysis of the deposited data

Results flagged for a closer look

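Of the 64 groups of 4 libraries examined (32 genes, auxin and ethanol of the RPOA-2 strain), 2 held a library far from the other 3, where chance gives about 1 in 20 groups. aars-2, the cytosolic alanyl gene, had 536 CPM in RPOA-2 auxin replicate 1, against 379 to 394 CPM in the other auxin libraries, and its auxin and ethanol libraries overlapped. vars-1 had 102 CPM in RPOA-2 ethanol replicate 3, against 94.2 to 94.9 CPM in the other ethanol libraries.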

How the results depend on the processing

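No called change turned its sign under any alternative run. The number of synthetase genes called did move. For RPOA-2 (1 called) it was 4 with total counts, 4 with DESeq2 and 4 with the library series as a covariate. It was 3 with a mean of at least 50 counts and 2 with the replicate block. It was 0 with no filter, with all groups in 1 fit, with replicates 1 to 3 only and with fractional counts. The fractional fit held replicates 1 to 3 only, so the effect of that count table cannot be told apart from that of fewer libraries. For GRWD-1 (2 called) it was 9 with the replicate block, 4 with DESeq2, 1 with no filter and 0 with fractional counts. For TSR-2 (0 called) it was 1 with total counts (pars-1) and 0 with the replicate block or adjacent library numbers as a block. Leaving out 1 library at a time gave 0 to 1 calls in each strain. The cause was not tested. Over all genes the block moved the calls from 187 to 975 for GRWD-1, while RPOA-2 had 298 without and 268 with it. For TSR-2, whose libraries were not taken as pairs, the block moved the calls from 163 to 31. RLE factors moved the median of all genes in TSR-2 to -0.10. No synthetase gene was called in an interaction under any alternative run. For TSR-2, 6 genes in all were called without the shallow auxin replicate 3, 105 without auxin replicate 1 and 452 without ethanol replicate 1, against 163 with all libraries. In replicate 3, 3 counts equal 63.8 CPM, above the level of the scarcest synthetase genes.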

Other observations

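Split by catalytic class, the -1 class II enzymes had positive log2 changes in 4, 8 and 9 of 10 genes for RPOA-2, GRWD-1 and TSR-2, with medians of -0.05, 0.19 and 0.14, and the class I enzymes in 6, 5 and 5 of 10, with medians of 0.04, 0.03 and 0.05. Class I held both rars-1 and cars-1.

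The 2 count tables gave the same value within 5% for 28 of the 32 genes. tars-1, the threonyl gene, had a fractional count of 0.502 times its count in the protein-coding table, with a range of 0.501 to 0.507 over 12 libraries. The other-strand gene kel-1, which its span overlaps, had 56.8 times its count. The TSR-2 level of tars-1, at 253 ± 22.9 CPM in auxin and 236 ± 33.2 CPM in ethanol libraries, is therefore not comparable with that of the other strains, at 468 ± 59.5 and 482 ± 56.2 CPM for RPOA-2. nars-2 and pars-2 had fractional counts of 1.26 and 1.25 times and iars-2 of 1.09 times.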
